A study of Mus musculus with 14 samples.

Results

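The interferon response genes described here are 37 genes that type I or type II interferon is known to induce, chosen by symbol, of which 36 had a row on the arrays. Ifi44 was not analysed here. They were taken from 19505 named genes measured in liver RNA of 14 samples on Affymetrix gene arrays, and compared between AMPK knockout and control samples. All samples came from male mice of C57BL/6 background, 4 months old per the labels, with both copies of the AMPK alpha1 and alpha2 genes (Prkaa1 and Prkaa2) floxed, so that Cre recombinase can delete the flanked stretch. From 6 weeks of age the mice ate a diet with 60% of its calories from fat, and after 4 weeks they received an AAV8 viral vector through the jugular vein. The vector was empty in the control group (labelled TGB_empty-vector WT, 6 samples), while that of the knockouts encoded Cre (labelled TGB_Cre KO, 8 samples). Its TBG promoter is active in hepatocytes, so other liver cells are not its intended target. All the mice were then given metformin, 50 mg/kg daily over 3 weeks, and were fasted for 16 h before the liver was taken. Both groups thus share the floxed alleles, the diet, an AAV8 vector, the drug and the fast. The labels do not say that each sample is a separate animal, so the p-values rest on sample-to-sample spread, part of which may be technical. In whole liver, fewer cells of a type and less RNA per cell cannot be told apart.

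Interferons are secreted proteins that cells release when sensors of foreign nucleic acid are triggered. Type I interferon acts through a transcription factor complex that includes Stat2 and Irf9 and binds the interferon-stimulated response element (ISRE). Genes induced by type II interferon often carry another element, the gamma-activated site (GAS). The induced genes encode proteins that block viral replication, guanosine triphosphatases (GTPases) that attack pathogen vacuoles, and the machinery that shows peptides on MHC class I. In the liver, hepatocytes, Kupffer cells (the resident macrophages) and endothelial cells all respond to interferon.

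The promoters of 3 members are shown because these members had the widest range between arrays, taking at most 1 from each gene family. Each window runs from 250 bases before to 50 after the start site in RefSeq (GRCm38.p6), is written 5′ to 3′ on the gene's strand, and has its motif matches in capitals. The ISRE search, on both strands, was for GAAA, any 2 bases and GAAA again; the GAS search was for TTCNNNGAA.
Gbp2 promoter, chr3:142620413-142620712, plus strand: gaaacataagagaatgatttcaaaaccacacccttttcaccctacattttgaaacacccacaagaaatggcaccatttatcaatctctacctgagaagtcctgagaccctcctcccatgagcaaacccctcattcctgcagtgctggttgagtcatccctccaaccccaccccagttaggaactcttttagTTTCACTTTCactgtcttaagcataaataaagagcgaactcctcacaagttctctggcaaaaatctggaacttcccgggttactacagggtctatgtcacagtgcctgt
Igtp promoter, chr11:58199306-58199605, plus strand: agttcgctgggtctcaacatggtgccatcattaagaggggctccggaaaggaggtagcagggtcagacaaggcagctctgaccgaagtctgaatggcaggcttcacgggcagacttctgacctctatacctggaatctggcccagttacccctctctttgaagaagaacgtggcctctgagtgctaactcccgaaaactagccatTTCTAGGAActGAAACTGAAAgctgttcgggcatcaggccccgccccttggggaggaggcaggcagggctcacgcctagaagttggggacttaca
Oas1a promoter, chr5:120907476-120907775, minus strand: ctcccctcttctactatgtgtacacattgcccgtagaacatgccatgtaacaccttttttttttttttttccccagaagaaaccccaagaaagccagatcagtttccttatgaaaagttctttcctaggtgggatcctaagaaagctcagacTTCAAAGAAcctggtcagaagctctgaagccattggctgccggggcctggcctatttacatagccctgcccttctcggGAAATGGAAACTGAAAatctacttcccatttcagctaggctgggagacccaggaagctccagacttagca

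Short stretches of other promoters were chosen after the values were seen, because the account below turns on these genes. Each shows the matches in capitals with 8 flanking bases.
Isg15 site, chr4:156200867-156200904, minus strand: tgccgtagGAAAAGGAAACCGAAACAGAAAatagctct
Bst2 site, chr8:71537579-71537616, minus strand: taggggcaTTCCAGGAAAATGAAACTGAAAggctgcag
Ifit1 site, chr19:34640777-34640802, plus strand: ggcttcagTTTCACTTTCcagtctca
Ifit1 site, chr19:34640796-34640821, plus strand: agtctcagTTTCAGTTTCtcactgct
Irf1 site, chr11:53769916-53769940, plus strand: agcctgatTTCCCCGAAatgatgag

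The Isg15 stretch holds 3 overlapping ISRE matches. In the Bst2 stretch 1 GAS match overlaps the first of 2 ISRE matches, the only such overlap among the 25 ISRE matches in the members' windows. The Ifit1 promoter has 2 separate ISRE matches, read on the opposite strand, and the first Irf1 window has 1 GAS match and no ISRE match. Promoter windows were found for 29 of the 37 genes, and 16 of the 29 (55.2%) held an ISRE match, against 3.99% of 27025 genes with a window. A GAS match was present in 9 of the 29 (31.0%), against 9.55% of all. By window, 50.0% of the members' 34 windows held an ISRE match and 26.5% a GAS match, against 3.44% and 8.30% of 32851 windows. A match describes the letters of the window and does not show that a factor binds there.

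Clustering split the arrays into 2 sets, a split absent from the labels: set 1 is control 1 to 3 with knockout 1 to 4, and the other arrays make up set 2. Correlations over all rows were 0.988 to 0.994 within sets and 0.951 to 0.963 across them, so the set was a term in every fit unless said otherwise. The targeted genes were lower in all 8 knockout samples than in every control of their set. Prkaa2 fell by 1.13 ± 0.08 (SE) on the log2 scale and Prkaa1 by 0.67 ± 0.13 in limma (adjusted p = 1.92e-06 and 0.0302), although dropping any 1 of 8 arrays ended the Prkaa1 call. Which exons the rows cover is not known here. Hepatocyte markers averaged 12.5 to 13.0 on every array, and array medians were 5.73 to 5.87.

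Knockout livers were compared with control livers to ask whether loss of hepatocyte AMPK under metformin went with another level of the interferon response genes. Most members had a slightly higher mean in the knockout samples, but none passed the test. Of 36 measured members 29 (against 50.6% of all genes) had a positive difference, and the median difference was 0.18 on the log2 scale against 0.00 over all 19505 genes. The largest were Ifit1, Isg15 and Usp18, at 1.44-fold, 1.42-fold and 1.40-fold. Bst2 was the single member in which all 8 knockout samples lay above every control sample of their set, which 0.774% of all genes did; no member had all 8 below, as 0.538% of all genes did.

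In limma with Benjamini-Hochberg adjustment over all genes, 0 members had an adjusted p under 0.05 in either direction, where 0.431% of all genes were called higher and 0.272% lower. At an unadjusted p under 0.05, 10 members were higher (5.53% of all genes were) and 1 was lower (4.83% of all genes were). The 10 were Ifit1, Isg15, Usp18, Oasl1, Zbp1, Rsad2, Cmpk2, Irgm1, Bst2 and Irf9, and the 1 was Irf1. The smallest adjusted p of a member was 0.0909, for Isg15. The median difference depended on which controls were kept. It was 0.13, 0.15 and 0.15 without control 1, control 4 or control 6 alone. Without control 2, control 3 or control 5 alone it was 0.22, 0.19 and 0.25. Without both control 1 and control 4 it was 0.08, with 24 of 36 members positive (51.1% of all genes). In that fit 6 members were higher (5.70% of all genes) and 1 lower (5.18%) at an unadjusted p under 0.05. Without control 5, Isg15 (adjusted p = 0.022) and Usp18 (adjusted p = 0.0139) passed in limma, where 85 of 19505 genes did (59 higher and 26 lower). At an unadjusted p under 0.05, 18 members were then higher (5.32% of all genes) and 1 lower (4.55%).

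**Figure D1:**
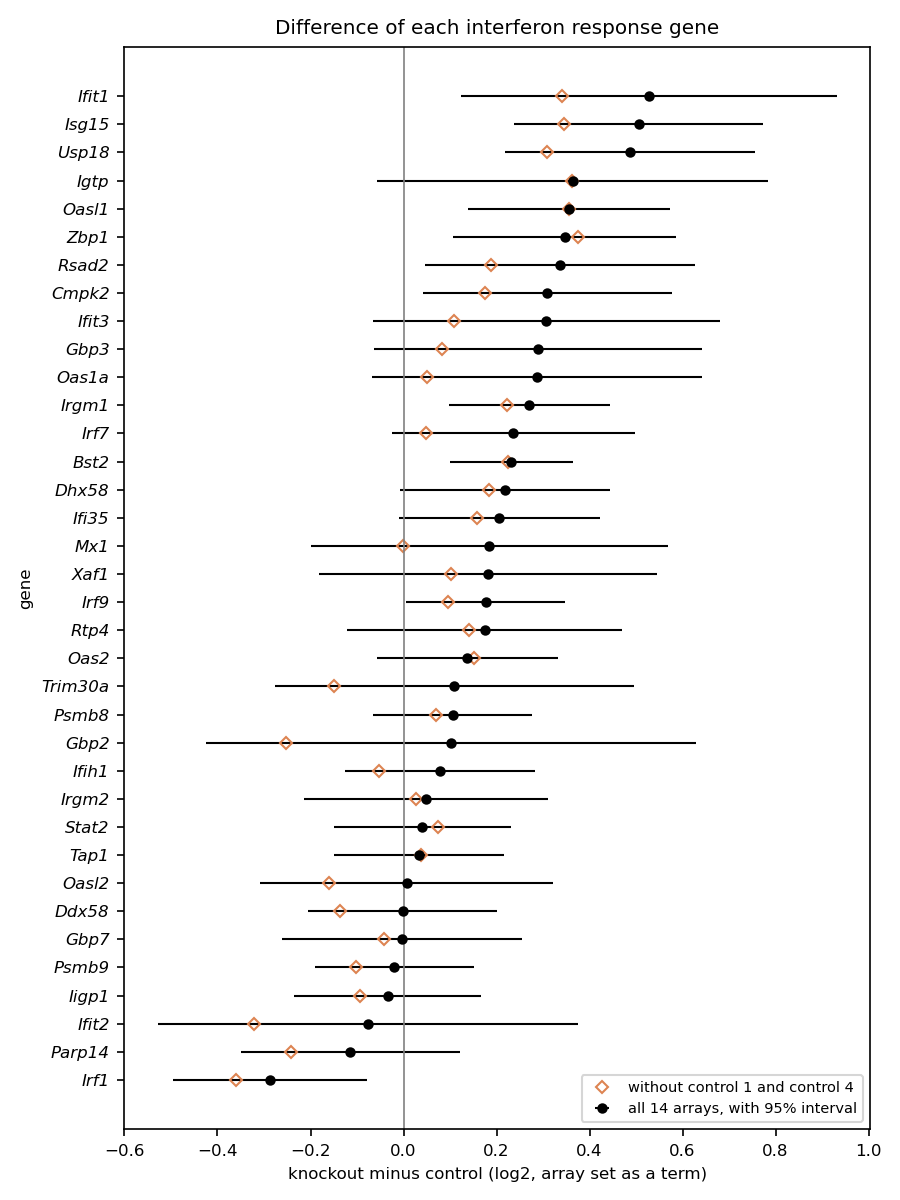
Knockout minus control difference of 36 interferon response genes on the log2 scale from limma with the array set as a term (filled points, bars 95% intervals; 6 control and 8 knockout samples), and the difference without control 1 and control 4 (open diamonds). Ifit1 is at the top at 0.53 and Irf1 at the bottom at -0.29, and 29 of 36 filled points lie above 0.

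The 2 genes of the ISG15 system had positive differences with the smallest adjusted p of the members. Here and below, a difference is knockout minus control on the log2 scale, given ± its SE from the fit. Isg15 encodes a ubiquitin-like protein that is joined to other proteins after interferon. The log2 level of Isg15 in set 1 was 6.52, 7.03 and 6.51 in control 1 to 3 and 7.16, 7.37, 7.20 and 7.21 in knockout 1 to 4. In set 2, control 4 to 6 read 4.89, 5.85 and 5.38 and knockout 5 to 8 read 5.75, 5.86, 6.02 and 5.73. Set by set, control 2 and control 5 were the highest controls, and 6 of 8 knockout samples lay above every control of their set. The difference was 0.51 ± 0.13 (SE; 0.55 in set 1 and 0.46 in set 2; limma adjusted p = 0.0909).

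Usp18 encodes the protease that removes ISG15 and dampens type I interferon receptor signalling. Usp18 read 8.29, 8.75 and 8.48 (log2) in control 1 to 3, against 8.95, 9.23, 9.04 and 9.0 in knockout 1 to 4 of the same set. Set 2 gave 7.86, 8.89 and 8.32 in control 4 to 6 and 8.65, 8.74, 8.86 and 8.88 in knockout 5 to 8. All 4 knockout samples of set 1 lay above the 3 controls, while in set 2 control 5 was higher than every knockout sample. The difference was 0.49 ± 0.13 (limma adjusted p = 0.109). The spread of both genes was narrow among knockouts, with a within-set SD of 0.12 for Isg15 and 0.11 for Usp18 against 0.40 among controls for each.

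Among 12 antiviral effectors 11 had a positive difference, with a median of 0.26. Ifit1 binds viral RNA whose cap lacks methylation. On the log2 scale, control 1 to 3 had Ifit1 at 7.26, 8.40 and 7.69 and knockout 1 to 4 at 8.31, 8.28, 8.46 and 8.18. Control 4 to 6 had it at 7.59, 8.58 and 7.25, and knockout 5 to 8 at 8.52, 8.55, 8.20 and 8.07. Control 1, 3, 4 and 6 lay below every knockout sample of their set, and control 5 above all of them; control 2 was within the knockout range. The difference was 0.53 ± 0.19 (limma adjusted p = 0.294), and the SD within sets was 0.64 among controls and 0.19 among knockouts.

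Bst2, or tetherin, holds budding viruses at the cell surface and is also a marker of plasmacytoid dendritic cells. The log2 level of Bst2 in set 1 was 11.31, 11.36 and 11.34 in control 1 to 3 and 11.48, 11.57, 11.59 and 11.54 in knockout 1 to 4. In set 2, control 4 to 6 read 10.30, 10.21 and 10.40 and knockout 5 to 8 read 10.55, 10.48, 10.50 and 10.69. The groups did not overlap within either set, and the controls were as tight as the knockouts (SD 0.07 and 0.08). The difference was 0.23 ± 0.06 (limma adjusted p = 0.124) and was 0.22 without control 1 and control 4. The other 2 plasmacytoid dendritic cell markers, Siglech and Ccr9, had a mean level of 3.93 to 4.10 in control and 3.82 to 4.19 in knockout samples of set 1. In set 2 the same mean was 4.14 to 4.15 in control and 4.27 to 4.44 in knockout samples. How many of all genes separate in set 2 was not counted. Each of these means lay below the median of its array, so both markers were dim. The part of such cells in the Bst2 difference was not tested.

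Oas1a makes the oligoadenylates that switch on RNase L. Oas1a read 6.07, 7.03 and 6.86 (log2) in control 1 to 3, against 6.90, 7.25, 7.46 and 6.69 in knockout 1 to 4 of the same set. Set 2 gave 5.73, 6.26 and 6.29 in control 4 to 6 and 6.41, 6.12, 6.53 and 5.91 in knockout 5 to 8. The lowest array of each set was a control, control 1 and control 4. The difference was 0.29 ± 0.17, which went to 0.05 without those 2 arrays.

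Of the oligoadenylate synthetase-like genes, Oasl1 had a difference of 0.36 ± 0.10 with 6 of 8 knockout samples above every control of their set, and Oasl2 had a difference of 0.01 ± 0.15. Oas2 had a difference of 0.14 ± 0.09. Rsad2, which makes a nucleotide that ends viral RNA chains, had a difference of 0.34 ± 0.14, and the nucleotide kinase gene Cmpk2 had a difference of 0.31 ± 0.13. Ifit3, a partner of Ifit1, had a difference of 0.31 ± 0.18, with the near-identical Ifit3b at 0.38 ± 0.17; without control 1 and control 4 they were 0.11 and 0.15. Whether the rows tell such copies apart is not known here. Mx1, an antiviral GTPase gene that carries a loss-of-function deletion in most laboratory strains, had a difference of 0.18 ± 0.18 and lay below the array median on 13 of 14 arrays. Trim30a, a ubiquitin ligase gene, had a difference of 0.11 ± 0.18, or -0.15 without control 1 and control 4.

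Ifit2, an RNA-binding relative of Ifit1, was the effector with a negative difference. On the log2 scale, control 1 to 3 had Ifit2 at 3.96, 5.19 and 4.23 and knockout 1 to 4 at 3.81, 4.80, 4.63 and 4.17. Control 4 to 6 had it at 4.31, 4.98 and 5.07, and knockout 5 to 8 at 4.26, 4.56, 4.98 and 5.20. It was below the array median on all 14 arrays. The groups overlapped in both sets and the difference was -0.08 ± 0.21 (limma adjusted p = 0.952).

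Of 4 signal and transcription factors 3 had a positive difference (median 0.11), and Irf1 had the lowest of all members. Irf1 activates GAS- and ISRE-bearing genes and is itself induced by type II interferon. The log2 level of Irf1 in set 1 was 8.86, 9.18 and 9.05 in control 1 to 3 and 8.70, 8.86, 8.75 and 8.60 in knockout 1 to 4. In set 2, control 4 to 6 read 9.0, 9.39 and 8.97 and knockout 5 to 8 read 8.95, 9.04, 8.92 and 8.49. In 6 of 8 knockout samples Irf1 lay below every control of the set, and the difference was -0.29 ± 0.10 (0.82-fold; limma adjusted p = 0.267). It was -0.30 in set 1, -0.27 in set 2 and -0.36 without control 1 and control 4. Irf7, the amplifier of type I interferon production, had a difference of 0.24 ± 0.12 (0.05 without control 1 and control 4), Irf9 0.18 ± 0.08 and Stat2 0.04 ± 0.09.

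Sensors of foreign nucleic acid gave 3 positive differences of 4. Zbp1, which binds left-handed nucleic acid and can start necroptosis, had a difference of 0.35 ± 0.11 (limma adjusted p = 0.228), with 7 of 8 knockout samples above every control of their set. Dhx58, encoding the helicase LGP2, had a difference of 0.22 ± 0.11. The RNA helicase genes Ifih1 (MDA5) and Ddx58 (RIG-I) had differences of 0.08 ± 0.10 and -0.00 ± 0.10, with intervals (95%) of -0.13 to 0.28 and -0.21 to 0.20.

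Of 7 interferon-inducible GTPases, 5 had a positive difference (median 0.10). Igtp, encoding a GTPase that guards the cell's own membranes, varied widely. Igtp read 9.33, 9.62 and 8.96 (log2) in control 1 to 3, against 9.83, 9.56, 9.81 and 9.43 in knockout 1 to 4 of the same set. Set 2 gave 8.48, 9.23 and 7.82 in control 4 to 6 and 9.34, 9.15, 8.77 and 8.26 in knockout 5 to 8. The lowest sample of each set was control 3 and control 6, and the difference was 0.36 ± 0.20 (limma adjusted p = 0.566). Irgm1, of the same regulatory class, had a difference of 0.27 ± 0.08 with 5 of 8 knockout samples above every control of their set, whereas Irgm2 had a difference of 0.05 ± 0.12 and the effector gene Iigp1 -0.03 ± 0.09.

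Gbp2 encodes a guanylate-binding protein that coats pathogen vacuoles, and it had the widest range of any member. On the log2 scale, control 1 to 3 had Gbp2 at 6.14, 6.85 and 6.97 and knockout 1 to 4 at 6.42, 6.71, 6.80 and 6.08. Control 4 to 6 had it at 5.78, 7.79 and 6.48, and knockout 5 to 8 at 7.11, 7.31, 7.06 and 6.67. Both the lowest and the highest sample of set 2 were controls, control 4 and control 5, which differed by 2.01. The difference between groups was 0.10 ± 0.25, at -0.15 in set 1 and 0.35 in set 2, and its sign turned (-0.25) without control 1 and control 4. Gbp3 had a difference of 0.29 ± 0.17 (0.08 without those arrays) and Gbp7 -0.00 ± 0.12.

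Antigen processing genes had small differences. The immunoproteasome subunit genes Psmb8 and Psmb9 had differences of 0.11 ± 0.08 and -0.02 ± 0.08, and the peptide transporter gene Tap1 0.03 ± 0.09; the 95% interval of Tap1 was -0.15 to 0.22. Of the remaining members Ifi35 had a difference of 0.21 ± 0.10, the apoptosis-linked Xaf1 0.18 ± 0.17 and Rtp4 0.17 ± 0.14. Parp14 adds single ADP-ribose units to proteins. The log2 level of Parp14 in set 1 was 5.73, 6.21 and 6.00 in control 1 to 3 and 5.98, 6.05, 6.17 and 5.53 in knockout 1 to 4. In set 2, control 4 to 6 read 6.41, 6.73 and 6.85 and knockout 5 to 8 read 6.59, 6.59, 6.43 and 6.31. Control 2 and control 6 were the highest of their sets and knockout 4 and knockout 8 the lowest, and the difference was -0.11 ± 0.11 (limma adjusted p = 0.802).

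**Figure D2:**
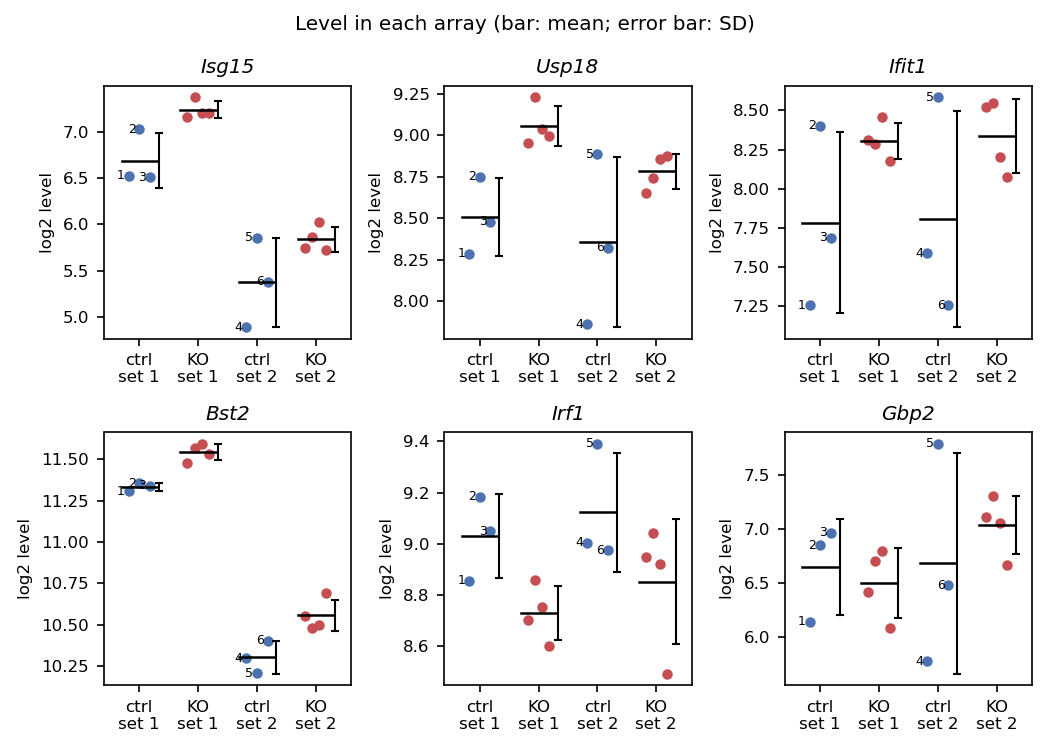
Log2 level of 6 interferon response genes in each array (blue control with replicate number, red knockout), by array set, with the mean (bar) and SD (error bar; 3 control and 4 knockout samples in a set). Bst2 groups do not overlap within a set, while control 2 lies within and control 5 above the knockout range of Ifit1.

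In these genes the controls spread more than the knockouts. The SD within sets, pooled over both, was larger among controls in 35 of 36 members, against 53.4% of all genes. Bst2 was the exception. The same held in 31 of the 39 other interferon-induced genes, 4 of 4 MHC class II genes and 7 of 7 endothelial markers. It also held in 6 of 6 hepatocyte, 5 of 6 stellate cell and 6 of 8 Kupffer cell and macrophage markers. The wider control spread was thus not particular to the members. Lower shares were seen in MHC class I genes (6 of 11) and inhibitors of the pathway (3 of 6). T and NK cell markers had 4 of 7 and B cell markers 1 of 3. The median SD over the members was 0.32 among controls and 0.19 among knockouts, whereas over all genes the medians were 0.19 and 0.18. This count is a description, since the members share their arrays, and no test of it was made.

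The spread came from the same arrays in most members. Control 1 lay below every knockout sample of set 1 in 24 of 36 members (24.7% of all genes) and control 3 in 20 (24.8%). Control 4 lay below every knockout sample of set 2 in 24 members (21.6%) and control 6 in 21 (21.8%). Control 2 and control 5 went the other way, each above every knockout sample of its set in 16 members, against 22.0% and 21.3% of all genes. By their median member, the knockout samples of each set lay between its 2 low controls and its 1 high control. Relative to the knockout mean of the set, the median member was at -0.36 in control 1, 0.11 in control 2 and -0.23 in control 3, and at -0.35, 0.17 and -0.33 in control 4, 5 and 6.

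**Figure D3:**
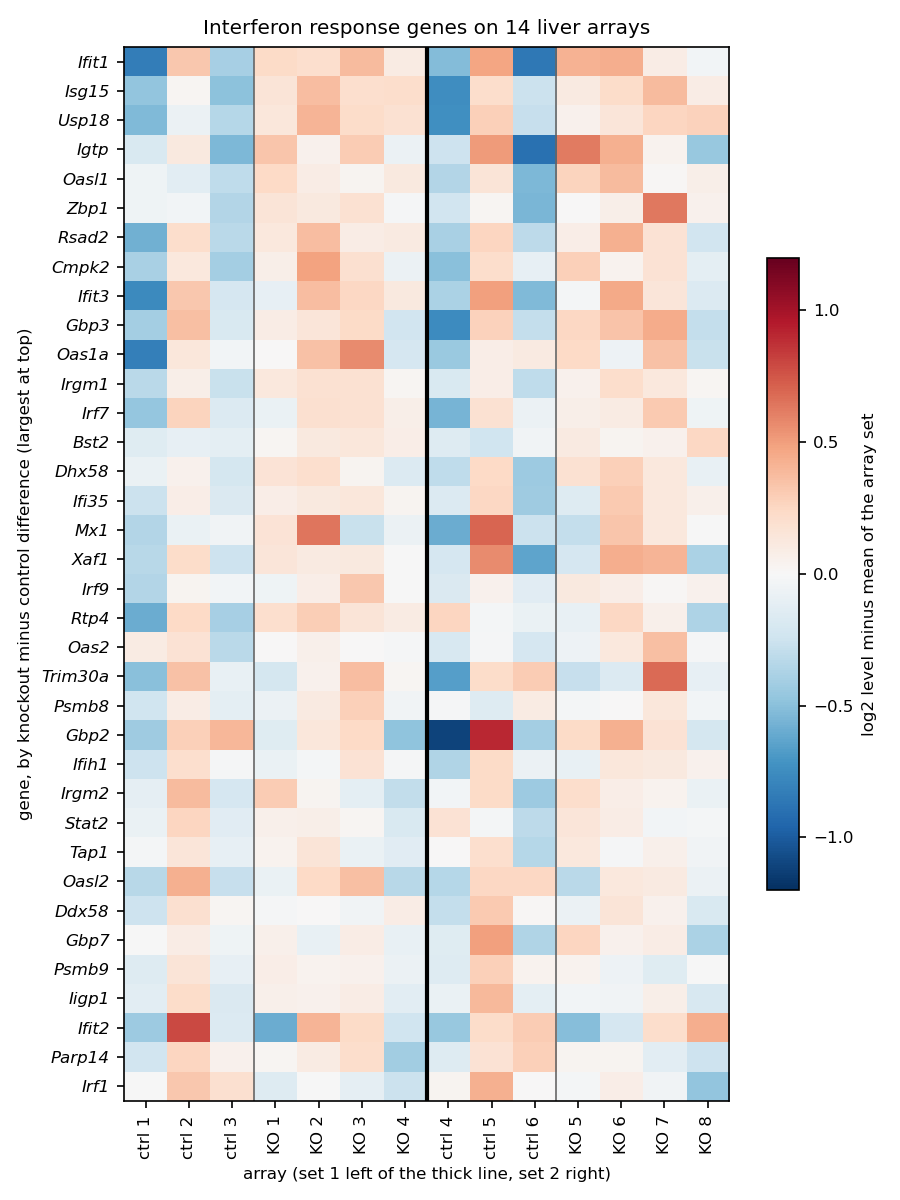
Log2 level minus the mean of the array set for 36 interferon response genes (rows, ordered by knockout minus control difference) on 14 arrays (columns; ctrl control, KO knockout). Control 1, 3, 4 and 6 are mostly blue and control 2 and 5 mostly red, with the knockout arrays between them.

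**Figure D4:**
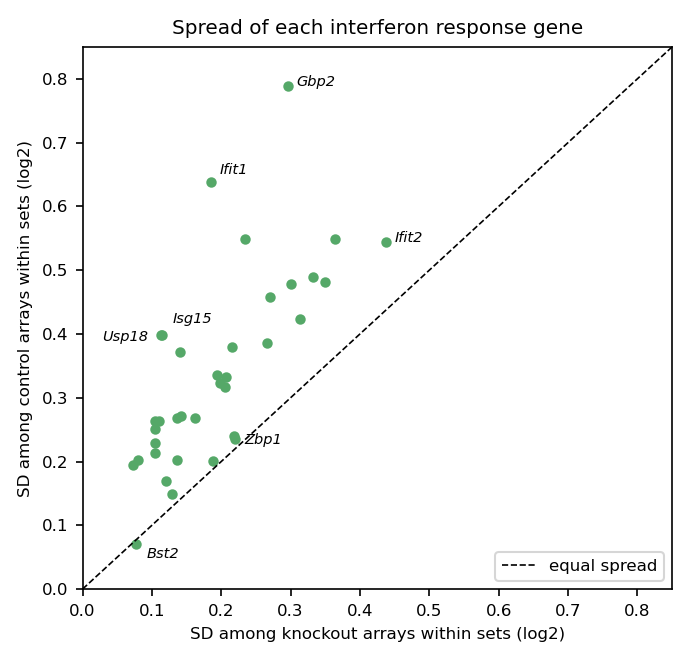
SD within array sets among control arrays (vertical) against that among knockout arrays (horizontal) for each interferon response gene, on the log2 scale. All points but Bst2 lie above the dashed line of equal spread.

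Control 1 and control 4 are given apart because an earlier analysis of these data set them apart. Control 1 was below the mean of the other controls of its set in 32 of 36 members (49.8% of all genes), with a median of -0.28. Control 4 was below in 30 of 36 members (49.4% of all genes), with a median of -0.26. The widest gaps were -0.87 for Oas1a in control 1 and -1.36 for Gbp2 in control 4. With both left out, 12 of 36 members had a negative difference instead of 7 (Gbp2, Trim30a, Mx1, Ifih1 and Oasl2 turned), and the smallest adjusted p of a member in limma was 0.239, for Irf1. The 3 largest differences were smaller without both: Ifit1 went from 0.53 to 0.34, Isg15 from 0.51 to 0.34 and Usp18 from 0.49 to 0.31. Ifit3 went from 0.31 to 0.11, Gbp3 from 0.29 to 0.08, Oas1a from 0.29 to 0.05 and Irf7 from 0.24 to 0.05. Igtp (0.36), Oasl1 (0.36), Zbp1 (0.38), Irgm1 (0.22) and Bst2 (0.22) stayed within 0.05 of their values over all arrays. Among members with a difference over 0.2, leaving out 1 array moved the value by over 1.5 times in Oas1a (0.14) and Ifit3 (0.18) without control 1, in Gbp3 (0.16) and Irf7 (0.14) without control 4, and in Igtp (0.21) without control 6.

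Markers of other liver cells moved with some of these arrays. The 8 measured Kupffer cell and macrophage markers stood at -0.54 (control 1) and -0.43 (control 4) from the set mean, and the 7 endothelial markers at -0.69 and -0.50. Control 3 and control 6, the other controls with low interferon response genes, did not share this: Kupffer cell markers were at 0.23 and 0.02, and endothelial markers at 0.45 and 0.22. Knockout 1 had Kupffer cell markers at -0.46 and endothelial markers at -0.30, while its median interferon response gene was at 0.07. Control 2 and control 5, the controls with high interferon response genes, had high Kupffer cell and endothelial markers. Their Kupffer cell markers were at 0.36 and 0.16, and their endothelial markers at 0.41 and 0.16. This did not hold for every cell type: their B cell markers were at -0.07 and -0.25, and their T and NK cell markers at 0.15 and -0.08. Stellate cell markers were at -0.52, 0.16 and 0.47 in control 1 to 3 and at -0.18, -0.04 and 0.25 in control 4 to 6. Knockout 4 had endothelial markers at -0.40, Kupffer cell markers at -0.06 and its median interferon response gene at -0.03. Hepatocyte markers stayed between -0.05 and 0.04 on all arrays.

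Between groups the marker levels overlapped for most cell types. Kupffer cell and macrophage markers averaged 7.80 to 8.71 in control and 7.89 to 8.70 in knockout samples of set 1, and 7.99 to 8.58 and 8.17 to 8.78 in set 2. The 3 measured B cell markers averaged 4.99 to 5.45 and 5.14 to 5.73 in set 1, and 4.71 to 4.84 and 4.92 to 5.28 in set 2. Their groups did not overlap in set 2, but how many of all genes separate there was not counted. Each of these means lay below the median of its array, so these markers were dim. T and NK cell markers averaged 4.76 to 5.18 and 4.97 to 5.09 in set 1, and 4.52 to 4.96 and 4.74 to 5.03 in set 2. No gene of a marker list was called in limma. At an unadjusted p under 0.05, Cd79a and Bst2 were higher (5.53% of all genes) and none was lower (4.83%). The part of these cells in the interferon response gene values was not tested.

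**Figure D5:**
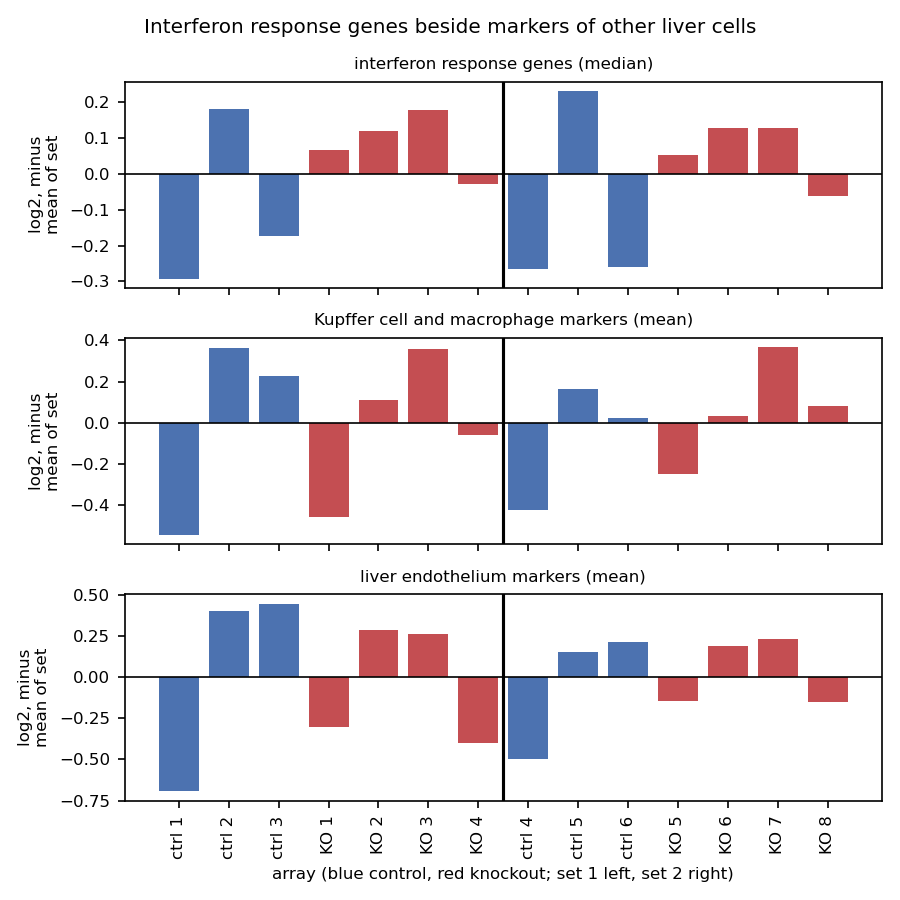
Median interferon response gene, mean Kupffer cell and macrophage marker and mean liver endothelium marker on each array, as log2 level minus the mean of the array set. Control 1 and control 4 are low in all 3 panels, and control 3 and control 6 are low only in the top panel.

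Other genes of the pathway gave 2 calls. Of 39 measured interferon-induced genes outside the members, 31 had a positive difference, against 50.6% of all genes, with a median of 0.12. Without control 1 and control 4, 20 of 39 were positive (51.1% of all genes) and the median was 0.03. In limma 2 rose (0.431% of all genes did) and 0 fell (0.272%). At an unadjusted p under 0.05, 9 were higher (5.53% of all genes) and 0 lower (4.83%). Parp9 encodes an inactive ADP-ribosyltransferase that works with the ubiquitin ligase Dtx3l. Parp9 read 6.98, 7.18 and 7.20 (log2) in control 1 to 3, against 7.58, 7.61, 7.55 and 7.81 in knockout 1 to 4 of the same set. Set 2 gave 7.80, 8.13 and 7.64 in control 4 to 6 and 8.23, 8.15, 8.43 and 8.35 in knockout 5 to 8. All 8 knockout samples lay above every control of their set, and Parp9 rose by 0.47 ± 0.09 (1.39-fold; limma adjusted p = 0.0219), with Dtx3l at 0.22 ± 0.08. It did not pass without control 1 (limma adjusted p = 0.0568) or control 4 (limma adjusted p = 0.0558), and without both the difference was 0.43 (limma adjusted p = 0.103).

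Apol9b, an apolipoprotein L family gene, rose by 0.33 ± 0.07 (limma adjusted p = 0.0364). On the log2 scale, control 1 to 3 had Apol9b at 8.83, 9.04 and 9.02 and knockout 1 to 4 at 9.23, 9.38, 9.19 and 9.20. Control 4 to 6 had it at 8.59, 8.82 and 8.63, and knockout 5 to 8 at 9.0, 9.05, 9.09 and 9.08. The groups did not overlap within sets, and the difference was 0.27 without control 1 and control 4 (limma adjusted p = 0.167). Dropping any 1 of 12 arrays, all but control 3 and control 5, ended this call, with limma adjusted p up to 0.088. Its near-identical copy Apol9a had a difference of 0.22 ± 0.08, and the 2 may share signal. Without the set term neither Parp9 nor Apol9b passed.

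Upstream of the response, the 8 interferon genes measured had a median difference of 0.01 and none was called (0 at an unadjusted p under 0.05, as for the receptors and kinases); Ifna4 had the largest difference at 0.18 ± 0.09, and Ifnb1, Ifng, Ifna1, Ifna2 and Ifna4 lay below the array median on all 14 arrays. The 8 receptor and kinase genes ran from -0.05 to 0.06, Ifnlr1, a receptor chain for type III interferon, being largest at 0.06 ± 0.09. Of 6 inhibitors 5 were negative and none was called (3 lower at an unadjusted p under 0.05), with Socs3, a brake on JAK kinases, at -0.23 ± 0.08. Among 8 sensing adaptors and factors 7 were negative and none was called (2 lower at an unadjusted p under 0.05). Irf5, which acts downstream of Toll-like receptors, had a difference of -0.36 ± 0.09 (limma adjusted p = 0.102). Over all genes, 50.6% had a positive difference. At an unadjusted p under 0.05 in limma, 5.53% of all genes were higher and 4.83% lower.

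MHC genes were not called either. At an unadjusted p under 0.05, 1 of 11 class I genes was lower (4.83% of all genes) and 1 of 4 class II genes was higher (5.53%). The 11 MHC class I and related genes had a median of -0.01, with the immunoproteasome subunit gene Psmb10 at -0.23 ± 0.08 (limma adjusted p = 0.29). The 4 MHC class II genes had a median of 0.21 (-0.12 without control 1 and control 4), and H2-Ab1 had a difference of 0.31 ± 0.25; in control 1 and control 4 their medians were -1.19 and -0.63 relative to the other controls of the set, beside the low macrophage markers given above.

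Members whose promoter window held an ISRE match had a median difference of 0.25 (14 of 16 positive), and the 12 measured members with a window but no such match had one of 0.14 (9 of 12 positive). The 4 with a GAS match and no ISRE match, Ifi35, Ifit2, Irf1 and Psmb8, had differences from -0.29 to 0.21. These are descriptions of a chosen list.

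The members also differed between the array sets, which were split over all rows and not by these genes. The gap, set 2 minus set 1, ran from -1.49 for Trim30a to 0.93 for Ddx58, with 8 members over 0.5 higher and 10 over 0.5 lower in set 2. How many of all genes had such a gap was not counted, so it is not shown to be a trait of the members. Wider gaps were seen outside them, at -1.75 for the neutrophil marker S100a8 and 1.39 for the hepatocyte marker Hnf4a. Of 36 members, 23 had a positive difference in both sets, against 28.5% of all genes. No member had an unadjusted p under 0.05 for a knockout difference that differed between sets (limma interaction, smallest adjusted p = 0.998; over all genes 0 were called and 943 had an unadjusted p under 0.05). Rtp4 had the least alike values, 0.44 in set 1 and -0.09 in set 2.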

How the data were processed

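The deposited values are log2 intensities, 1 per transcript cluster. Per the submitters' processing notes RMA and Partek were used (no versions given), and the log2 scale was inferred from the values (2.13 to 13.8). They were used without further normalization. Arrays give no read depth, so precision rests on how many samples there are and how they spread; a background level was not used here. Of 22206 rows 19572 had 1 gene symbol, and 2634 were unnamed here. For 55 genes with several rows the brightest was used.

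The members, lists and tests were chosen with earlier results of these data known, among them the 2 array sets, which were found again by average-linkage clustering of array correlations. The group difference came from limma 3.58.1 under R 4.3.3 (lmFit, then eBayes), in a model of group plus set that leaves 11 degrees of freedom, with Benjamini-Hochberg adjustment over 19505 genes. The fit was run on simulated data as a check of the code. How often it calls a change of the size seen in the members is not given here. No 2 arrays held identical values. Knockout 7 and 8 carry the same description numbers as knockout 5 and 6, so averaging these pairs and leaving out knockout 7 and 8 were among the alternatives. All members could be named; every sample's value is given for the 3 largest differences in each direction and the 4 widest ranges, and for the calls Parp9 and Apol9b. Of other lists, calls or otherwise the largest difference are named. The sample values of Bst2, and Dtx3l, Apol9a, Ifit3b and Cd79a, were added after values were seen. Motifs were searched in RefSeq promoter windows (GRCm38.p6).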

Additional observations from a re-analysis of the deposited data

Results flagged for a closer look

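Within each group, after the fitted set gap was removed, 3 of 76 gene and group combinations had an extreme sample whose gap to its neighbour took up more of the group's range than Dixon's limit for 6 or 8 samples; chance gives about 1 in 20. All 3 were the highest knockout sample. Zbp1 in knockout 7 (log2 level 7.59) had a gap of 0.694 of the range. Oas2 in knockout 7 (6.20) had 0.553. Irf9 in knockout 3 (8.29) had 0.547.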

How the results depend on the processing

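Over all genes limma called 137. The count was 18 at an adjusted p under 0.01 and 242 under 0.1, 272 with dim genes left out, 325 with the trend and robust options, 67 with the repeated knockout numbers averaged, 12 without knockout 7 and 8, 26 without control 1 and control 4, 0 without the set term (1.74% of genes higher and 1.61% lower at an unadjusted p under 0.05), 2 in set 1 alone and 2 in set 2 alone. Leaving out 1 array gave 44 to 132. The replicate number as a block gave 2 calls over all genes and 0 members. Same-numbered samples deviated together with correlations of 0.02 to 0.09 only, so the numbers were not used as pairs. A low correlation over all genes cannot show that no samples are paired. The count of interferon response genes called, 0, became 1 (Isg15) at an adjusted p under 0.1, 2 (Isg15 and Bst2) with dim genes left out, 4 (those with Usp18 and Irgm1) with trend and robust, and 0 to 2 when 1 array was left out, where 2 came without control 5. The causes were not tested. The median difference kept its sign under every alternative run, from 0.08 without control 1 and control 4 to 0.25 without control 5, and 0.13 to 0.25 when 1 array was left out. No array gave a background level, which limits dim genes such as Ifit2 and Mx1.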
